A study of Mus musculus with 6 samples.

Results

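Retinoid genes were examined in the esophageal epithelium of mice in which the transcription factor gene *Klf4* was targeted. The set holds 10 genes of 19938 compared: the enzyme genes *Rdh10*, *Rdh11*, *Rdh12*, *Rdh13*, *Dhrs3*, *Dhrs9* and *Aldh1a3*, the binding protein gene *Crabp2*, the nuclear receptor gene *Rarg* and the uptake receptor gene *Stra6*. Each was read from the probe set that names that gene alone, taking the brightest over the 6 arrays where there were several. The genes were proposed with the genotype differences of these same arrays known, so their genotype values are given as a description and carry no test. The 3 mutant mice carried the ED-L2-Cre transgene and loxP sites on both copies of *Klf4*, and the 3 control mice were littermates with the same loxP sites and no Cre. The ED-L2 promoter drives expression in squamous epithelia, the esophagus among them. All 6 animals were 3 months old and of mixed genetic background, and each genotype had 1 male (replicate 1) and 2 females (replicates 2 and 3), with a separate array for each animal.

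Vitamin A circulates as retinol and acts in cells mainly as retinoic acid. Retinol is first oxidized to retinaldehyde, a step that other enzymes of the same short-chain dehydrogenase family reverse, and retinaldehyde is then oxidized irreversibly to retinoic acid. Retinoic acid is carried to nuclear receptors, which bind DNA as pairs with retinoid X receptors, and it is broken down by enzymes of the CYP26 family. In stratified squamous epithelia, retinoid supply is known to affect how far cells keratinize.

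The targeted gene did not separate the groups in the direction of its deletion: every mutant array lay above every control array. *Klf4* read 10.28, 10.50 and 10.28 on the log2 scale on the arrays labelled mutant, against 9.75, 10.15 and 10.06 on the arrays labelled control, a difference of 0.37 ± 0.13 (SE; limma adjusted p = 0.314). Neither the removed part of the gene nor the place of its probes is stated in what was used here, and probes outside the removed part would check nothing. "Higher" and "lower" therefore compare mutant with control arrays as labelled. Medians of the 6 arrays lay between 5.01 and 5.13. Precision is limited by having 3 arrays a genotype. All 15 squamous epithelium markers were measured and none passed the test (limma, adjusted p under 0.05 over all genes), with 5 at an unadjusted p under 0.05; over all genes these shares were 1.04% and 12.4%. In 5 of the 15 the groups did not overlap, where 18.1% of all genes had such groups. Of these 5, 4 had the mutant arrays higher and 1 had them lower. *Dsg3*, a desmosomal cadherin, read 12.23, 11.35 and 11.50 in mutant mice, against 11.18, 10.87 and 10.83 in control mice (0.73 ± 0.23, SE, log2; limma adjusted p = 0.231). *Epcam*, an epithelial adhesion molecule, read 8.88, 8.88 and 8.78 in mutant mice, against 8.02, 8.27 and 8.35 in control mice (0.63 ± 0.11; limma adjusted p = 0.0547). *Sox2* and *Cdh1* were the other 2 with higher mutant arrays and *Grhl3* the 1 with lower (named after their values were seen). The keratin genes *Krt4* and *Krt13*, also named after their values were seen, lay at 13.64 ± 0.07 and 13.81 ± 0.07 in mutant mice and at 13.68 ± 0.09 and 13.78 ± 0.11 in control mice (SD, n = 3 each). Markers of other cells were present too. All 14 measured fibroblast genes were lower in mutant mice, 3 of them past the threshold in limma and 13 at an unadjusted p under 0.05. In 10 of the 14 the groups did not overlap, against 18.1% of all genes. The summed linear signal of the 14 was 3323 to 3696 in mutant mice against 5403 to 9130 in control mice. The summed signal of 10 smooth muscle genes was 1557 to 2511 in mutant mice and 3075 to 5063 in control mice, with none past the threshold in limma and 8 at an unadjusted p under 0.05. The 12 skeletal muscle genes differed mainly between animals of the same genotype, with sums of 10739, 8201 and 1202 in mutant mice and 1078, 30248 and 15159 in control mice. None of the 12 passed the test, at an adjusted or unadjusted p. The fibroblast genes past the threshold were *Col1a2*, *Sparc* and *Thy1*. Of 10 endothelial genes *Flt1* fell, and of 11 leukocyte genes *Cd68* rose and *Lyz2* fell; of these 6 genes, all but *Flt1* and *Lyz2* are named after their values were seen. The counts for each of these marker lists are to be read against the same 1.04% and 12.4% of all genes. In bulk RNA such as this, fewer cells of a type and less RNA per cell cannot be told apart, and the part of fibroblast and muscle RNA in the retinoid values was not tested.

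Among the 10 genes, the clearest separation was between 2 members of one enzyme family that lay on opposite sides. *Rdh10* was 2.26-fold higher in mutant mice and *Rdh13* was 1.86-fold lower, and in both the 3 mutant arrays lay wholly apart from the 3 control arrays. Such separation was seen in 2 of the 10 genes and in 18.1% of all genes. The same 2 genes were past an adjusted p of 0.05 in limma, as were 1.04% of all genes (0.366% higher and 0.672% lower), and nothing is read from these counts because the genes were chosen with that contrast in view. The 7 enzyme genes had differences between -0.90 and 1.17 with a median of 0.06, against a median of 0.02 for all genes. The sign of that median rested on single arrays: it was -0.08 without mutant replicate 1, -0.03 without mutant replicate 2, -0.0048 without control replicate 2 and -0.06 in the females alone, and 0.23 without mutant replicate 3. The binding protein and both receptor genes all had differences below 0: -0.51 for *Crabp2*, -0.19 for *Stra6* and -0.04 for *Rarg*.

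**Figure D1:**
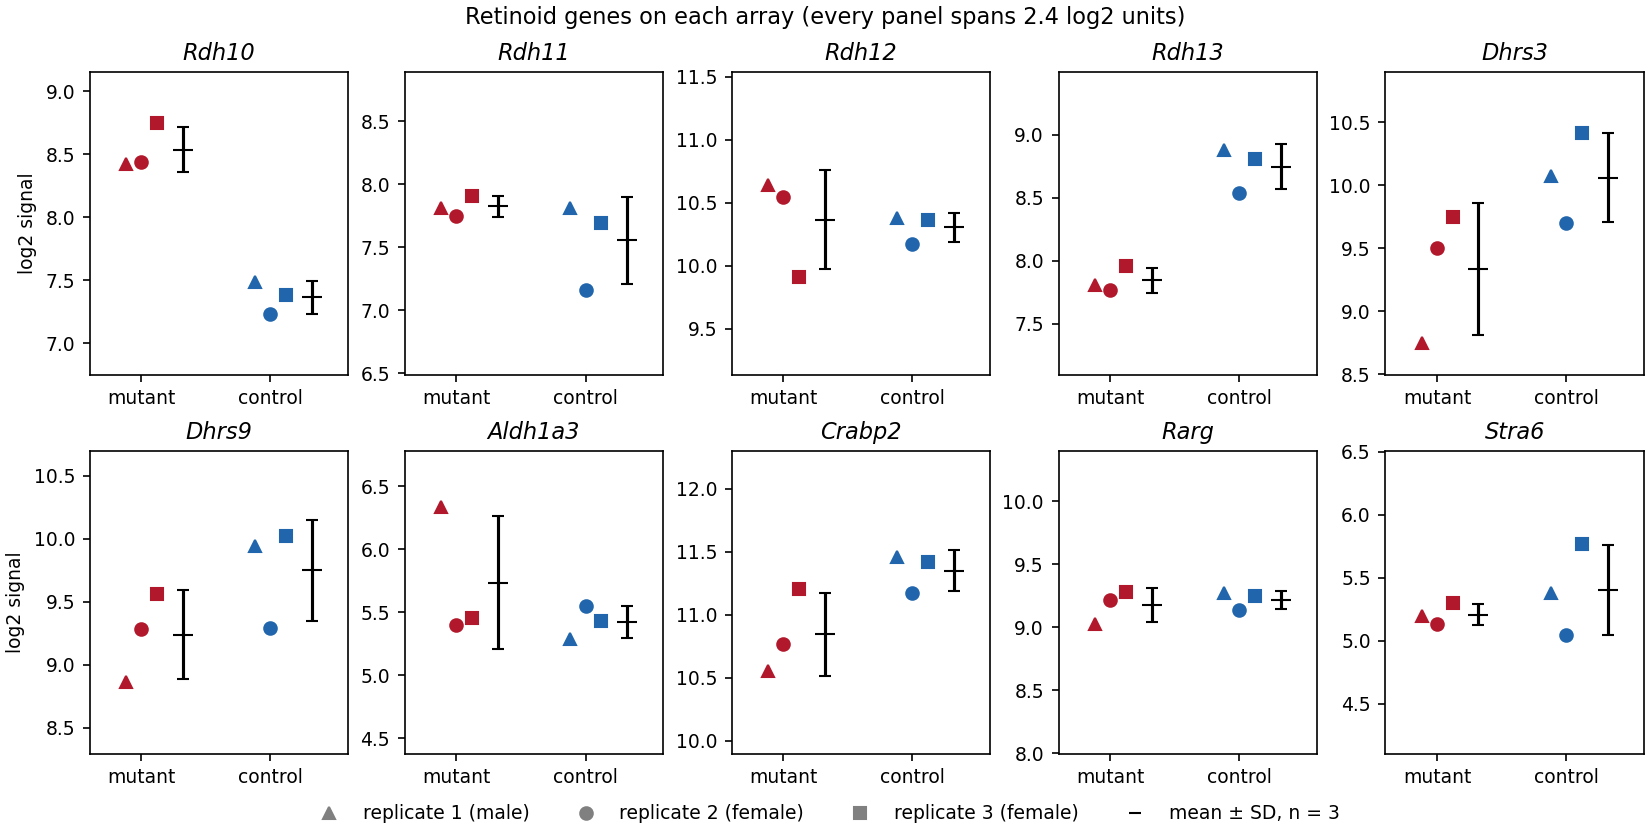
Log2 signal of each of the 10 retinoid genes on the 6 arrays, mutant left and control right, with every panel spanning the same height. Triangles are the males (replicate 1), circles and squares the females, and bars the mean ± SD (n = 3). *Rdh10* and *Rdh13* show groups that do not overlap, while the other 8 genes overlap.

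The first step from retinol to retinoic acid is represented by *Rdh10* and *Dhrs9*. *Rdh10* encodes the retinol dehydrogenase that is the main source of retinaldehyde in the mouse embryo. Its log2 signal was 8.42, 8.44 and 8.75 in mutant mice, against 7.49, 7.23 and 7.38 in control mice. Every mutant array was above every control array, and the animals of each genotype lay close together, with means of 8.54 ± 0.18 in mutant mice and 7.36 ± 0.13 in control mice (SD, n = 3 each). The difference was 1.17 ± 0.13 (SE, log2), and it lay between 1.07 and 1.24 when any single array was left out.

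*Dhrs9* encodes a short-chain dehydrogenase that can oxidize retinol in epithelia and also acts on steroids. It read 8.86, 9.28 and 9.56 in mutant mice, against 9.94, 9.29 and 10.02 in control mice. The control female of replicate 2 lay among the mutant arrays, so the groups overlapped. The means were 9.24 ± 0.35 in mutant mice and 9.75 ± 0.40 in control mice, a difference of -0.51 ± 0.24 (SE, log2) that is of the same order as the spread within each genotype. It lay between -0.74 and -0.32 with single arrays left out, the smallest without mutant replicate 1. Thus *Rdh10* and *Dhrs9*, which share the oxidation of retinol as a described activity, had differences of opposite sign.

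*Aldh1a3* encodes a retinaldehyde dehydrogenase that completes the synthesis of retinoic acid. It read 6.34, 5.40 and 5.46 in mutant mice, against 5.29, 5.55 and 5.43 in control mice. A single array, the mutant male, was high, and the other 5 lay within a narrow range. The difference of 0.31 ± 0.24 (SE, log2) became 0.01 when mutant replicate 1 was left out. Sex and the individual animal cannot be told apart for that array. The same animal also stood apart in some genes of the leukocyte list. *S100a8*, a neutrophil protein that stressed keratinocytes make too, read 10.01, 6.08 and 5.80 in mutant mice, against 4.70, 4.85 and 4.79 in control mice. The mutant male was not the highest of the 6 arrays in *Cd68*, *Lyz2*, *Cd3e* and *Adgre1*, and was the highest in the rest of the list. The summed linear signal of the 11 leukocyte genes was 3111, 1293 and 1216 in mutant mice and 1134, 1632 and 1317 in control mice. The part of these signals in the retinoid values was not tested.

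The 4 remaining enzymes are best known for the reverse reaction, the reduction of retinaldehyde to retinol. *Dhrs3* encodes such a reductase, which limits the formation of retinoic acid and is itself induced by it in several tissues. It read 8.75, 9.50 and 9.75 in mutant mice, against 10.07, 9.70 and 10.41 in control mice. The highest mutant array stood just above the lowest control array, so the groups overlapped at that point. The means were 9.33 ± 0.52 in mutant mice and 10.06 ± 0.35 in control mice, 1.65-fold lower in mutant mice, a difference of -0.72 ± 0.28 (SE, log2). It was -0.43 without mutant replicate 1, the lowest array, and -0.93 without control replicate 2.

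*Rdh13* encodes a mitochondrial retinol dehydrogenase that favours reduction. It read 7.81, 7.77 and 7.96 in mutant mice, against 8.88, 8.54 and 8.81 in control mice. All mutant arrays lay below all control arrays, with means of 7.85 ± 0.10 in mutant mice and 8.74 ± 0.18 in control mice (SD, n = 3 each). The difference of -0.90 ± 0.12 (SE, log2) stayed at -0.83 or lower with any single array left out.

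*Rdh11* and *Rdh12* are neighbouring genes on chromosome 12 and encode closely related reductases, the second known for clearing retinaldehyde in photoreceptors. *Rdh11* read 7.81, 7.75 and 7.91 in mutant mice, against 7.81, 7.16 and 7.69 in control mice. Only control replicate 2 lay clearly lower, and the difference of 0.27 ± 0.17 (SE, log2) became 0.08 without it. *Rdh12* read 10.64, 10.54 and 9.91 in mutant mice, against 10.38, 10.17 and 10.36 in control mice. Mutant replicate 3 was the lowest array and the other mutant arrays were the highest, giving a difference of 0.06 ± 0.19 with a range from -0.08 to 0.29 as single arrays were left out. The 4 reductase genes therefore spanned differences from -0.90 to 0.27, and the oxidizing enzymes from -0.51 to 1.17.

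**Figure D2:**
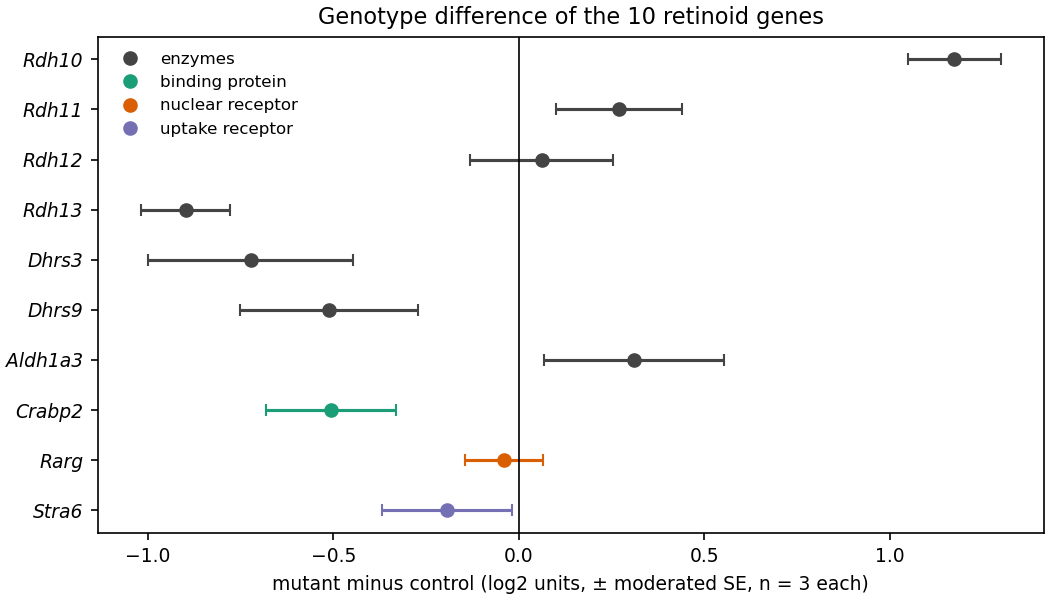
Difference of each gene between mutant and control mice in log2 units, with the moderated SE (n = 3 each), coloured by role. The enzymes spread from -0.90 (*Rdh13*) to 1.17 (*Rdh10*), and *Crabp2*, *Rarg* and *Stra6* lie between -0.51 and -0.04.

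The binding protein gene *Crabp2* encodes the carrier that delivers retinoic acid to its nuclear receptors. It read 10.55, 10.77 and 11.20 in mutant mice, against 11.46, 11.17 and 11.42 in control mice. The lowest control array was just under the highest mutant array, and the other arrays of the genotypes were apart. The means were 10.84 ± 0.33 in mutant mice and 11.35 ± 0.16 in control mice, 1.42-fold lower in mutant mice, with a difference of -0.51 ± 0.18 (SE, log2) and a range from -0.69 to -0.36 with single arrays left out.

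*Rarg* encodes retinoic acid receptor gamma, the main retinoic acid receptor of skin and other squamous epithelia. It read 9.03, 9.22 and 9.28 in mutant mice, against 9.27, 9.14 and 9.25 in control mice. The groups lay on top of each other, and the difference of -0.04 ± 0.10 (SE, log2) changed sign with single arrays left out, from -0.09 to 0.03. *Stra6* encodes the membrane receptor that takes up retinol from its plasma carrier and was named for its induction by retinoic acid. It read 5.20, 5.13 and 5.30 in mutant mice, against 5.38, 5.05 and 5.77 in control mice. The control arrays enclosed the mutant arrays, and the difference was -0.19 ± 0.18 (SE, log2), from -0.37 to -0.01 with single arrays left out, the smallest without control replicate 3.

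In *Dhrs3*, *Dhrs9*, *Crabp2* and, over a much narrower range, *Rarg*, the mutant male was the lowest of all 6 arrays and control replicate 2 the lowest control array. This order was noticed after the values were seen and has no test: it was found in 4 of the 10 genes, in 9 of 69 other retinoid genes (13.0%) and in 7.70% of all genes. By root mean square difference of values centred on each gene's mean over the 6 arrays, the genes most like *Crabp2* among the 19938 were *Fam25c* (0.059 log2 units) and *Tshz2* (0.065). *Fam25c* read 10.79, 11.13 and 11.45 in mutant mice, against 11.77, 11.55 and 11.80 in control mice, with all mutant arrays lower. *Rdh10* was most like *Zfp719* (0.142) and *Sqor* (0.164), the second encoding a mitochondrial enzyme that oxidizes hydrogen sulfide. *Sqor* read 8.66, 8.66 and 8.64 in mutant mice, against 7.72, 7.07 and 7.54 in control mice. *Rarg*, which hardly varied, was most like *Trdmt1* (0.018) and *Prl7b1* (0.022), 2 genes of low signal. *Trdmt1* averaged 4.72 in mutant mice and 4.77 in control mice, close to the 40th percentile of all genes (4.72). *Prl7b1* averaged 2.43 in mutant mice and 2.47 in control mice, far under it. These likenesses rest on 6 arrays and a search over all genes, and are given as a description.

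The promoters of *Dhrs3* and *Dhrs9* are shown because, of the 6 genes with a window, they had the largest differences (-0.72 and -0.51); they were picked after their values were seen. RefSeq windows (GRCm38.p6) running from 250 bases before to 50 bases after an annotated start were matched to 6 of the 10 genes, 13 windows in all: *Dhrs3*, *Dhrs9*, *Rarg*, *Rdh11*, *Rdh12* and *Stra6*. Both strands were searched for AGGTCA, the core site bound by retinoic acid and retinoid X receptors, and for CACCC, the core of sites bound by Krüppel-like factors, and capitals mark these matches on either strand. The *Dhrs9* window is chr2:69380212-69380511 (plus strand) and the first of 3 *Dhrs3* windows is chr4:144892577-144892876 (plus strand), each printed 5′ to 3′.
Dhrs9: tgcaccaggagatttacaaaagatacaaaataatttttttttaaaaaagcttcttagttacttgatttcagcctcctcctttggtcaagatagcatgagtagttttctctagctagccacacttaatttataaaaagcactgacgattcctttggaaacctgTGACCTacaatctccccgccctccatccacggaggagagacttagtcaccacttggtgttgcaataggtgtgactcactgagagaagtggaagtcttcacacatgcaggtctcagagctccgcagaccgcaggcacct
Dhrs3: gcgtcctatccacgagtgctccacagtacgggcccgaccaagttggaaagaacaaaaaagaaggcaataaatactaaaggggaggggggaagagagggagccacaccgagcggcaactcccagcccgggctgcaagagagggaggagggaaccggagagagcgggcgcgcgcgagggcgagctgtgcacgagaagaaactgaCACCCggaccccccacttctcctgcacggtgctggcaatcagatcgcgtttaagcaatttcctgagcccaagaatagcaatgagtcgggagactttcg

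The *Dhrs9* window holds 1 core receptor site, on the opposite strand and 88 bases before the start, and no CACCC. The *Dhrs3* window holds no core receptor site and 1 CACCC, 48 bases before the start, and the other 2 *Dhrs3* windows hold neither. Core receptor sites were present in 3 of the 13 windows (*Dhrs9*, *Rarg* and *Rdh11*) and in 16.3% of all 32851 windows, and CACCC in 8 of the 13 (*Dhrs3*, *Rarg*, *Rdh11*, *Rdh12* and *Stra6*) and in 57.5% of all windows. GGGCGG, the GC box, was present in 5 of the 13 and in 35.7% of all windows. The tandem repeats of the core site, AGGTCANNAGGTCA and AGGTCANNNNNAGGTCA, were in none of the 13 and in 0.00913% of all windows each. These matches describe letters only and leave binding unmeasured.

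Sex gave a contrast that played no part in the choice of genes. With genotype in the fit, none of the 10 genes passed the test between the 4 females and the 2 males (limma adjusted p from 0.944 to 0.996). Of all genes, 0.0100% passed. None of the 10 had an unadjusted p under 0.05, where 5.22% of all genes did. The largest sex differences were in *Dhrs3*, with means of 9.84 in females and 9.41 in males (0.43 ± 0.27, SE, log2), and in *Aldh1a3*, with 5.46 in females and 5.82 in males (-0.36 ± 0.24).

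The genotype difference was then set apart by sex. For *Aldh1a3* it was -0.06 in females and 1.05 in the male pair, and the difference of these effects, -1.11 ± 0.23 (SE, log2), had an unadjusted p of 0.00259 and a limma adjusted p of 0.527. For *Dhrs3* the genotype difference was -0.43 in females and -1.32 in the male pair, for *Dhrs9* -0.23 and -1.08, and for *Crabp2* -0.30 and -0.91. In these 3 genes the sign was the same in both sexes, and the difference of effects did not pass (limma adjusted p = 0.917, 0.955 and 0.965). *Rdh10* was higher in both (1.29 in females, 0.93 in the male pair) and *Rdh13* lower in both (-0.81 and -1.07). No member passed the interaction test, 1 had an unadjusted p under 0.05, as did 5.82% of all genes, and 0.0451% of all genes passed. The 9 genes that passed were *Bbox1*, *Krt16*, *Krt6b*, *Lcn2*, *Ppbp*, *S100a8*, *S100a9*, *Serpina3n* and *Srgn*, all but *S100a8* named after their values were seen. With 1 male per genotype, sex and the individual animal cannot be told apart in this contrast.

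**Figure D3:**
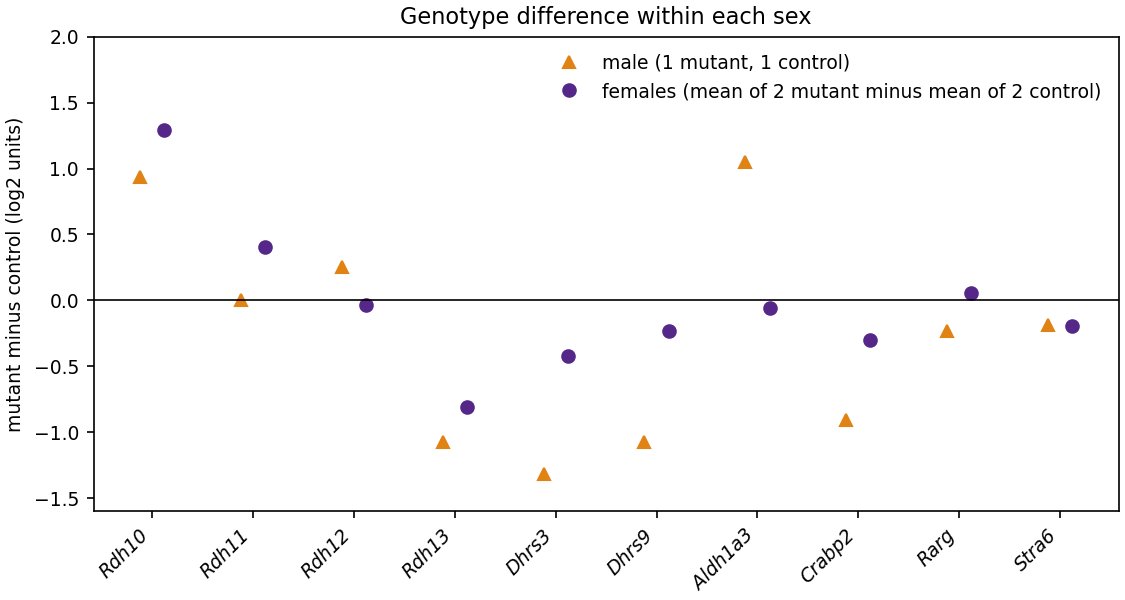
Genotype difference of each gene in log2 units, taken in the male pair (triangles, 1 mutant minus 1 control) and in the females (circles, mean of 2 minus mean of 2). *Aldh1a3* lies at 1.05 in the male pair and -0.06 in the females, and *Dhrs3*, *Dhrs9* and *Crabp2* lie lower in the male pair than in the females; none of these contrasts between sexes passed the test.

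The rest of the pathway was examined through 75 other retinoid genes, of which 69 were measured by a probe set naming that gene alone. None of the 69 passed limma's adjusted threshold, where 1.04% of all genes did. At an unadjusted p under 0.05 there were 17 of the 69, 5 higher and 12 lower in mutant mice, a share of these genes to be read against 12.4% of all genes. Of the 69, 31 had differences above 0 and 38 below 0, against 11072 above and 8866 below of all 19938 genes. The median difference of the 69 was -0.01, against 0.02 for all genes, and 27 of them had a mean under the 40th percentile of all genes (4.72 on the log2 scale).

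Of 16 genes that interconvert retinol and retinaldehyde, 12 had differences above 0 and none passed. *Adh1*, an alcohol dehydrogenase that also oxidizes retinol, averaged 9.11 ± 0.10 in mutant mice and 10.22 ± 0.55 in control mice (SD, n = 3 each). All mutant arrays were lower than all control arrays, with a difference of -1.11 ± 0.25 (SE, log2; limma adjusted p = 0.103; it passed with array weights and without control replicate 2). *Akr1b8*, an aldo-keto reductase of the kind that reduces retinaldehyde, read 7.77, 7.98 and 7.63 in mutant mice, against 7.08, 7.32 and 6.57 in control mice. The difference was 0.81 ± 0.19 (limma adjusted p = 0.125).

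The 5 genes listed here for retinaldehyde oxidation all had differences below 0, as had 8866 of all 19938 genes. Their median was -0.52, and none passed. *Aldh1a3*, given above, is not among the 5 and had a difference of 0.31 ± 0.24 (SE, log2). The SE exceeded the size of the difference in *Aldh1a7* (-0.10 ± 0.20) and in *Aldh8a1* (-0.03 ± 0.12), the second under the 40th percentile of all genes. *Aox1* read 5.74, 5.73 and 4.55 in mutant mice, against 4.47, 7.63 and 6.32 in control mice (-0.80 ± 0.73). Its lowest arrays, mutant replicate 3 and control replicate 1, also had the lowest summed skeletal muscle signal (1202 and 1078). The part of muscle RNA in *Aox1* was not tested. *Aldh1a7*, *Aldh8a1* and *Aox1* are named after their values were seen. *Aldh1a1* averaged 8.33 ± 0.22 in mutant mice and 8.98 ± 0.51 in control mice, and *Aldh1a2*, an enzyme typical of mesenchyme, 4.70 ± 0.36 in mutant mice and 5.22 ± 0.12 in control mice (SD, n = 3 each). Their differences were -0.65 ± 0.25 and -0.52 ± 0.18 (SE; limma adjusted p = 0.328 and 0.279). The *Aldh1a2* mutant mean was just under the 40th percentile of all genes (4.72). The *Aldh1a1* and *Aldh1a2* values lie beside the lower fibroblast signal given above, whose part in them was not tested. Among 4 breakdown genes, *Cyp26b1* averaged 7.68 ± 0.13 in mutant mice and 8.04 ± 0.25 in control mice, and *Cyp2s1* 10.66 ± 0.61 in mutant mice and 11.28 ± 0.12 in control mice. Neither passed (limma adjusted p = 0.376 and 0.408).

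In storage and ester hydrolysis, *Ces1d*, a carboxylesterase that can hydrolyse retinyl esters, read 8.47, 9.56 and 9.67 in mutant mice, against 10.78, 9.87 and 10.44 in control mice. The groups were apart, with the mutant male the lowest array, and the difference was -1.13 ± 0.35 (SE; limma adjusted p = 0.224). *Dgat1*, which can esterify retinol, differed by 0.28 ± 0.17 (limma adjusted p = 0.575), and none of the 7 genes of this role passed.

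The binding proteins other than *Crabp2* included the gene nearest the threshold. *Fabp5*, a fatty acid carrier that can also bring retinoic acid to the receptor PPAR delta, read 12.69, 12.66 and 12.55 in mutant mice, against 12.10, 12.07 and 12.17 in control mice. Its groups were tight and apart, 1.44-fold higher in mutant mice, a difference of 0.52 ± 0.09 (SE, log2; limma adjusted p = 0.0533, from 0.0191 to 0.231 over the alternatives). It passed in 5 of 15 alternatives, among them quantile normalization. *Crabp2* and *Fabp5*, both described as carriers of retinoic acid, thus had differences of opposite sign, -0.51 and 0.52, and the contrast between them was not tested. *Crabp1*, a further binding protein gene for retinoic acid, lay on the side of *Crabp2* (-0.30 ± 0.15, SE, log2, limma adjusted p = 0.501). It is named after its values were seen. *Rbp7*, a retinol binding protein, averaged 4.39 ± 0.27 in mutant mice and 5.09 ± 0.33 in control mice (limma adjusted p = 0.182). Its mutant mean was under the 40th percentile of all genes (4.72).

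Of 11 receptor and cofactor genes none passed. *Ncoa3*, a coactivator of nuclear receptors, averaged 8.38 ± 0.15 in mutant mice and 8.83 ± 0.07 in control mice, and the related orphan receptor gene *Rora* 8.31 ± 0.34 in mutant mice and 8.97 ± 0.14 in control mice (SD, n = 3 each). The groups did not overlap in either gene, with differences of -0.45 ± 0.11 and -0.66 ± 0.18 (SE; limma adjusted p = 0.122 and 0.159). Of 16 genes listed as retinoid responsive, 11 had differences below 0, as had 8866 of all 19938 genes, and none passed. *Tgm2*, the transglutaminase classically induced by retinoic acid, read 7.37, 7.54 and 6.63 in mutant mice, against 8.18, 8.88 and 8.29 in control mice. All its mutant arrays were lower, with a difference of -1.27 ± 0.27 (limma adjusted p = 0.0932). *Rai14*, named for its induction by retinoic acid, read 5.91, 6.16 and 5.90 in mutant mice, against 7.32, 6.63 and 6.62 in control mice, a difference of -0.86 ± 0.20 (limma adjusted p = 0.111).

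The direct targets most often used as a readout of retinoic acid, *Rarb* and *Cyp26a1*, were picked out after their values were seen. *Rarb* averaged 4.50 ± 0.20 in mutant mice and 5.10 ± 0.34 in control mice, a difference of -0.59 ± 0.19 (SE; limma adjusted p = 0.231). *Cyp26a1* averaged 3.45 ± 0.30 in mutant mice and 3.43 ± 0.19 in control mice, both under the dim limit of 4.72 (limma adjusted p = 0.979).

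**Figure D4:**
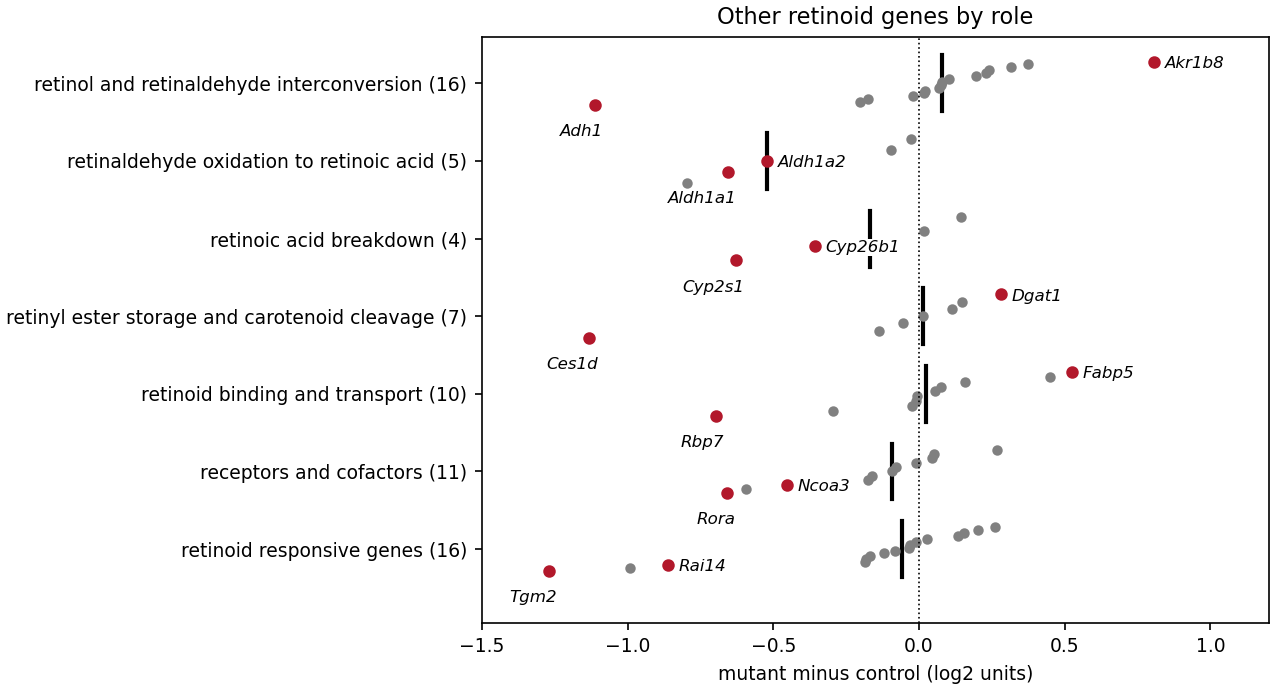
Genotype difference in log2 units of 69 other retinoid genes, a point for each gene, grouped by role with the number measured in brackets. Black bars are medians, and red points are the 14 genes named by rule. The 5 retinaldehyde oxidation genes shown all lie below 0 (median -0.52), with *Aldh8a1* at -0.03 and *Aldh1a7* at -0.10. Of all 19938 genes, 8866 lie below 0. *Aldh1a3* (0.31) is not among them. No gene shown passed the adjusted threshold.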

How the data were processed

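Total RNA of the esophageal epithelium of each animal, 100 ng, was reverse transcribed from a poly(T) primer, amplified and hybridized to 1 array, per the labels' protocols. The authors deposited log2 values for 28853 probe sets, and the submitters' processing notes name Partek 6.4. How they corrected background, normalized and summarized is not given in the sources used here. That the scale is log2 follows from the range, 1.90 to 14.67. How dim and bright probes were compressed is therefore unknown.

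Gene names came from the platform annotation, updated through Entrez identifiers (21698 of 21789 matched). Probe sets naming several genes (1621) or unnamed here (5443) were left out. Genotype differences came from limma 3.58.1 under R 4.3.3, using lmFit and eBayes with genotype as the only term, two-sided (residual degrees of freedom 4), with Benjamini-Hochberg adjustment over 19938 genes and a threshold of 0.05. Sex was fitted beside genotype, and the interaction with 2 residual degrees of freedom. The members and lists were chosen with earlier results of these data known. From each role list the text names every passing gene and otherwise the 2 with the smallest p. It also names the 2 genes nearest in pattern to *Rdh10*, *Crabp2* and *Rarg*. Data for mutant against control (19938 genes) were simulated in 1 run with independent normal noise at each gene's moderated variance. On these the fit recovered 16% of log2 changes of 0.5, 94% of those of 1, 98% of those of 2 and 100% of those of 3. Variation that genes share between animals was not simulated, so these shares do not measure how sensitive the fit was on the real arrays. Alternatives were quantile normalization, median centring, a filter on dim genes, the mean of all probe sets of a gene, a sex covariate, the replicate number as a block, array weights, an intensity trend and each array left out. A fit to the females alone was chosen after seeing the data. Python 3.11.15 and matplotlib 3.10.9 served for names and plots.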

Additional observations from a re-analysis of the deposited data

How the results depend on the processing

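All 150 values of the 10 genes over 15 alternatives moved by less than the pooled SD between replicates. Little can be read from this. The dim filter, the mean of all probe sets, intensity trend, block and sex covariate left each difference unchanged. Leaving out 1 of 3 arrays cannot exceed that bound. Signs did change: *Aldh1a3* went from 0.31 to -0.06 and *Rarg* from -0.04 to 0.06 in the females alone. *Rdh12* went from 0.06 to -0.08 without mutant replicate 1. The count of all genes passing, 207, was 370 with array weights and 83 in the females alone, and 44 to 193 with single arrays left out. Among the 10 genes, 2 passed, against 1 in the females alone and 0 to 2 with single arrays left out (0 without control replicate 3, 1 without any one mutant array). *Rdh10* passed in 14 of the 15 alternatives and *Rdh13* in 9. Of the other retinoid genes, 0 passed, against 1 with quantile normalization, without dim genes, with the mean of all probe sets and with an intensity trend, 2 with array weights, and 0 to 2 with single arrays left out. These were *Fabp5* with the first 5 of these settings, *Adh1* with array weights and without control replicate 2, and *Rarres1*, named after its values were seen, without control replicate 2. Genes passing between the sexes, 2, numbered 5 with median centring and with an intensity trend, 4 with array weights and with genotype left out of the fit, 1 without dim genes and 2 to 21 with single arrays left out. Interaction calls, 9, numbered 4 without dim genes. Same-numbered animals did not deviate together (correlations of -0.17, 0.09 and -0.10), and with the replicate number as a block 81 genes and 1 of the 10 passed. Median centring and quantile normalization put the median of all genes at 0.04 and 0.01, against 0.02 as deposited. Of 210 values of the 14 other retinoid genes named by rule, 203 kept direction and call and 7 newly passed, with none reversed. A mean under the dim limit limits 27 of the 69 other retinoid genes. The cause of these shifts was not tested.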
